A study of Mus musculus with 6 samples.

Results

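The 34 genes described here encode the proteins that drive a cell into mitosis and pull its chromosomes apart. They were chosen by symbol among the 32285 genes of the matrix, and all 34 were found. The rule uses symbols and roles, and the list was drawn up with earlier results of these data known. By role they are 6 cyclins, CDK1 and its regulators, 4 mitotic kinases, 3 members of the chromosomal passenger complex, 6 checkpoint and kinetochore genes, 4 kinesins, 6 spindle and cytokinesis proteins, 3 genes of the anaphase-promoting complex pathway, and Mki67 and Top2a, which act on chromatin.

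MOC-2, a mouse squamous carcinoma line of the head and neck, was grown under the skin of male mice, and 6 tumors were taken 24 hours after an injection into the tumor. The labels list 3 tumors given vehicle (DMSO in the sample descriptions) and 3 given an experimental agent that the sample labels do not name further. Live cells were sorted, each tumor was marked with an oligonucleotide tag, and the tumors were pooled for droplet 3′ RNA sequencing of 14818 cells. No label ties a cell, a tag or a barcode suffix to a tumor, so treated and vehicle tumors were not compared, the pool counts as 1 sample, and no p-value was computed.

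Cells that share a barcode suffix are called a barcode set, and the 6 sets belong to no group. After filtering, 13747 cells were analysed. They were sorted into 12 lineages by the number of different marker genes with a unique molecular identifier (UMI, a tag that counts 1 captured transcript). The carcinoma gate held 8482 cells, the macrophage or monocyte gate 1897, the T cell gate 400, the NK cell gate 310 and the fibroblast gate 299. The genes named next were among those of the gate, so their levels describe the lineages and are no separate check of the names. Ptprc, the pan-leukocyte surface protein CD45, stood at 1.04 UMIs per 1000000 gene UMIs (CPM) in carcinoma cells and at 1282 CPM in T cells. Xist, expressed from an inactive X chromosome, stood at 1112 CPM in carcinoma cells and between 2.82 and 21.7 CPM in the host lineages of these male mice. A further 440 cells with host signs and at least 3 Xist UMIs were set apart as mixed. Median depth differed widely, with 11749 UMIs in carcinoma cells, 7053 in fibroblasts, 3138 in NK cells, 2203 in macrophages or monocytes and 2063.5 in T cells.

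In a dividing cell, CDK1 with cyclins A and B starts mitosis, and the kinases Plk1, Aurka and Aurkb build the spindle and correct its attachments. The spindle checkpoint holds the anaphase-promoting complex until all kinetochores are attached, after which Cdc20 and Ube2c direct the destruction of securin and cyclin B. The transcripts of most of these genes are made in G2 and M, under the DREAM and B-MYB-MuvB complexes, which bind a promoter element called the CHR (cell cycle genes homology region), often next to CCAAT boxes bound by NF-Y.

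Promoter letters were read because a shared element is known for genes of this programme. RefSeq promoter windows on GRCm38.p6, from 250 bases before to 50 after the start, matched 30 of the 34 genes by symbol. Ccna2, Aurkb, Tpx2 and Kif20a had no entry. Motifs were searched on both strands: TTTGAA for the CHR and CCAAT for the CCAAT box, and a base may belong to both. The CHR letters stood in 22 of 30 windows, 73.3%, against 18.1% of all 27018 windows. CCAAT stood in 24 of 30, 80.0%, against 37.9% of all windows, and both motifs in 20 of 30, 66.7%, against 7.12%. Of 65 other G2/M genes that are no members, 51 matched and 29 held the CHR letters. Of 40 S-phase genes 33 matched and 4 held them.

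The 200 bases before the start of 5 genes are shown 5′ to 3′ on the gene's own strand, because later results turn on these genes. Capitals mark TTTGAA or CCAAT and their reverse complements TTCAAA and ATTGG.
Mki67 (chr7:135716380-135716579, minus strand): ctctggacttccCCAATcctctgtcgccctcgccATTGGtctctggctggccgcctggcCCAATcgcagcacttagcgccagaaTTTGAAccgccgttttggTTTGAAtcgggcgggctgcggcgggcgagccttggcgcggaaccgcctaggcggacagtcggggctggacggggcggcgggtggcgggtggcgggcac
Top2a (chr11:99024190-99024389, minus strand): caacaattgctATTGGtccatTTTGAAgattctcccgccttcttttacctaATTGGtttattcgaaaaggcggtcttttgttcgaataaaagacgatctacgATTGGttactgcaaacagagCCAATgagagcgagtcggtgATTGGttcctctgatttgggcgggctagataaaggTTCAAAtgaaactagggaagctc
Kif11 (chr19:37376182-37376381, plus strand): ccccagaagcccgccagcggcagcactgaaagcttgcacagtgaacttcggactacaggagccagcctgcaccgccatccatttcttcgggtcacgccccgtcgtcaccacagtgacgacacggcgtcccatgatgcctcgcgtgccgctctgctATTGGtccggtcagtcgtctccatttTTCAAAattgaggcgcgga
Birc5 (chr11:117849037-117849236, plus strand): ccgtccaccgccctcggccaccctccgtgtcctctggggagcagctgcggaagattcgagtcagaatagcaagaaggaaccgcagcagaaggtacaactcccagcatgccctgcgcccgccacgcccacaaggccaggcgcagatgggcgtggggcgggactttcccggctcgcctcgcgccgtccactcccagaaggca
Anln (chr9:22389207-22389406, minus strand): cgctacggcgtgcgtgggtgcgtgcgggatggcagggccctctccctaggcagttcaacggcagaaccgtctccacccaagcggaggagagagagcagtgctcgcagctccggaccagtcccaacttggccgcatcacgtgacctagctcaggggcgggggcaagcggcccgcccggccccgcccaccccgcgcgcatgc
Mki67 and Top2a each held 2 CHR matches in this stretch, with 3 and 5 CCAAT matches. Kif11 held 1 of each, close to the start. Birc5 held neither motif in its whole window, as did Nusap1, Knstrn and Pttg1. Anln held neither motif before the start, and its 2 CHR matches lay after it. A match is a string of letters, not a measured binding site.

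Shares of cells were compared after each cell was thinned at random to 2000 gene UMIs, since a deeper cell shows more genes, and cells with fewer UMIs were left out. A thinned cell with a UMI of at least 3 different members is called a G2/M-program cell. By this rule 26.3% of carcinoma cells (2213 of 8406; exact 95% binomial interval 25.4 to 27.3) were G2/M-program cells. All intervals here cover counting error only. T cells had 34.6% (72 of 208; 28.2 to 41.5), pericytes or smooth muscle cells 25.5% (13 of 51; 14.3 to 39.6) and NK cells 18.7% (43 of 230; 13.9 to 24.3). Fibroblasts had 8.74% (25 of 286; 5.74 to 12.6) and macrophages or monocytes 8.14% (88 of 1081; 6.58 to 9.93).

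Small lineages gave wide intervals. Endothelial cells had 14.0% (7 of 50), mast cells or basophils 13.3% (6 of 45), dendritic cells 6.25% (2 of 32) and osteoclast-like cells 5.68% (10 of 176). B or plasma cells had 5 such cells of 11, all in barcode set 6, and without that set 0 of 2 passed. Neutrophils, which have left the cell cycle, serve as the background: 1 of 25 passed, 4.00%, with an upper bound of 20.4%. Median depth was 1816 UMIs over all 60 gated neutrophils, including those too shallow to be thinned. The intervals of carcinoma cells and T cells lie above the neutrophil bound of 20.4%, and those of all other lineages reach below it. In the order T cells, carcinoma cells, NK cells, fibroblasts and macrophages or monocytes, only the last pair had overlapping intervals.

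The rank of T cells above carcinoma cells changed with the number of UMIs kept per cell, which also changed the cells compared. Thinned to 1000 UMIs, which kept 369 T cells, 13.6% of T cells and 17.7% of carcinoma cells passed. Without thinning the values were 22% and 51.3%. At 2000 UMIs 192 of 400 T cells were left out as too shallow, against 76 of 8482 carcinoma cells. In both lineages the cells that passed were deeper before thinning: a median of 5378 UMIs against 2770.5 in T cells and 16716 against 10627 in carcinoma cells. The part of depth in these shares was not tested. When cells were called instead from the 65 other G2/M genes, the shares were 39.9% in T cells, 26.7% in carcinoma cells, 22.6% in NK cells and 9.34% in macrophages or monocytes, with 0 of 25 neutrophils, for which a floor of 3 cells allows a share of up to 12%.

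**Figure D1:**
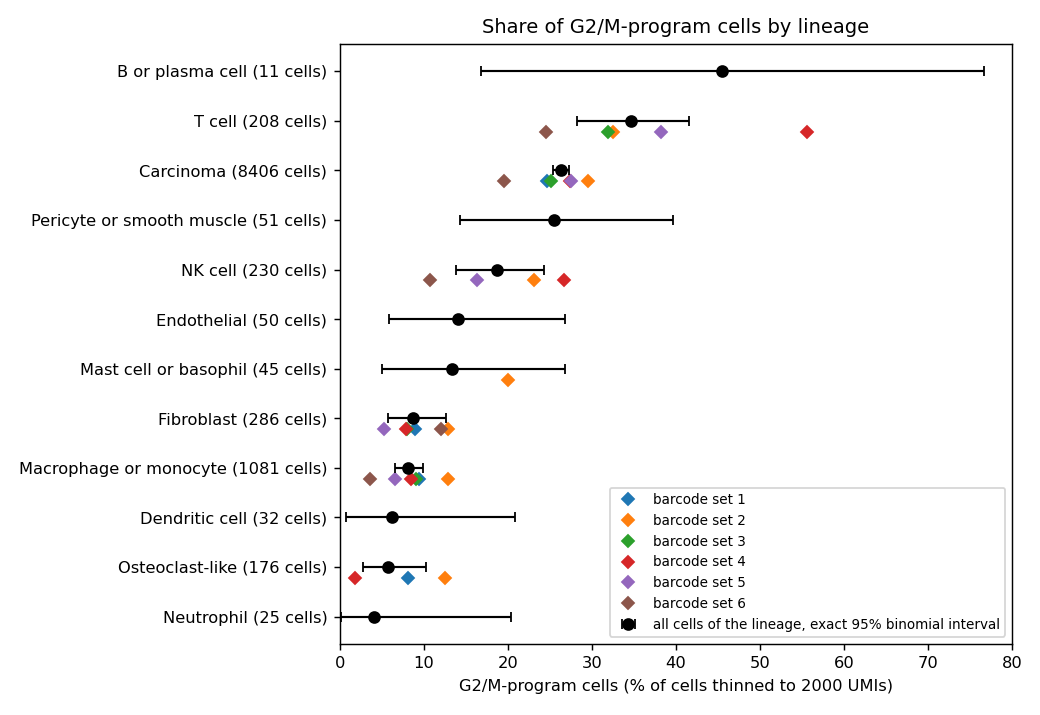
Share of G2/M-program cells (%, x axis) in each of the 12 lineages, with cells thinned to 2000 UMIs. Black points are all cells of a lineage with the exact 95% binomial interval, and coloured diamonds are single barcode sets with at least 20 such cells. T cells and carcinoma cells lie at 34.6% and 26.3%, macrophages or monocytes at 8.14%, and barcode set 6 has the lowest diamond in T cells, NK cells, carcinoma cells and macrophages.

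The plot of shares by lineage shows how far the sets spread within a lineage. Over the 6 sets the carcinoma share ran from 19.5% in set 6 to 29.5% in set 2, with a median of 26.3%. Macrophages or monocytes ran from 3.57% in set 6 to 12.9% in set 2. T cells ran from 24.5% in set 6 to 55.6% in set 4 over the 5 sets with at least 20 thinned cells, and NK cells from 10.7% in set 6 to 26.7% in set 4 over 4 such sets. Set 6 was thus the lowest in each of these 4 lineages, while in fibroblasts it stood at 12%, within their range of 5.26 to 12.8%.

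The number of members per thinned cell spread widely. Of the thinned carcinoma cells 3813 held no member, 1774 held 1, 606 held 2, 339 held 3, and the highest number in a cell was 20. Of the thinned T cells 53 held none, 62 held 1, 21 held 2 and 7 held 3. The 606 and 339 carcinoma cells lie just outside and just inside the limit of 3. With a limit of 5 members 18.9% of carcinoma cells, 25% of T cells, 13.5% of NK cells and 5.55% of macrophages passed, and no neutrophil did.

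Subsets were split on the same thinned counts. CD8 T cells, those with a Cd8a or Cd8b1 UMI, had 43.1% (31 of 72; 31.4 to 55.3), other T cells 29.1% (37 of 127; 21.4 to 37.9) and Foxp3 T cells 4 of 9, so that their intervals overlap. Macrophages with a UMI of C1qa, C1qb or C1qc, the complement C1q chains of mature macrophages, had 10.2% (73 of 717; 8.07 to 12.6), and those without had 4.12% (15 of 364; 2.32 to 6.71). The order was the reverse in barcode set 3, at 4% (1 of 25) against 13.3% (4 of 30). It was also the reverse in set 6, at 1.19% (1 of 84) against 7.14% (4 of 56). In sets 1, 2, 4 and 5 the share was higher with C1q, with 31 of 264 against 0 of 102 in set 4. Carcinoma cells with at least 4 epithelial markers had 24.7% (132 of 534; 21.1 to 28.6) and the others 26.4%, with overlapping intervals.

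Other genes moved with the call. S-phase UMIs per 2000 were 5.65 in carcinoma G2/M-program cells and 1.97 in the other carcinoma cells, 9.25 and 3.60 in T cells, 8.70 and 2.74 in NK cells, and 5.66 and 1.53 in macrophages. The summed carcinoma markers were at 593 CPM in macrophages that passed and 327 CPM in those that did not, and at 1103 and 389 CPM in fibroblasts. In T cells they were at 183 CPM in cells that passed and 365 CPM in the rest. Xist was at 19.1 CPM in macrophages that passed and 16.9 CPM in the rest, after host cells with at least 3 Xist UMIs had been set apart. Y-linked RNA, a host sign, was at 73.5 CPM in fibroblasts that passed and 170 CPM in the others. The part of carcinoma RNA in the fibroblast and macrophage shares was not tested.

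Lists outside the 34 genes were compared between G2/M-program cells and other cells of the same lineage. A gene was called at 2-fold or more with at least 50 counts in both arms together. In carcinoma cells all 65 other G2/M genes were called higher, with a median of 11.1-fold, where 4.18% of all 13433 genes were higher and 7.04% lower. The 3 with the highest level were Cks2, a CDK subunit, at 433 against 117 CPM, and the condensin subunits Smc4 at 294 against 58.3 CPM and Smc2 at 196 against 26.4 CPM. Of 40 S-phase genes 34 were higher, with a median of 2.92-fold. Among them Dut, which keeps uracil out of DNA, stood at 408 against 181 CPM, Pcna, the replication clamp, at 236 against 116 CPM, and the origin protein Orc6 at 204 against 99.6 CPM. The median over genes of at least 20 CPM was 0.97-fold.

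Few arrest and G1 genes were past 2-fold with the call in carcinoma cells, where 4.18% of all genes were higher and 7.04% lower. Summed, the arrest genes stood at 3.35 UMIs per 2000 in G2/M-program cells and 4.72 in the others. The G1 genes stood at 3.06 and 2.44. Of 17 arrest genes 1 was higher, Cdkn2d, an inhibitor of CDK4 and CDK6, at 86.7 against 35 CPM, and 1 was lower, Gadd45a, a stress gene, at 26.9 against 56.0 CPM. The 3 arrest genes of highest level were within 2-fold: Cdkn2a at 556 against 813 CPM, Btg1 at 355 against 485 CPM and Gas1 at 154 against 292 CPM. None of 8 G1 cyclins and kinases was called, and the highest were Ccnd1 at 914 against 692 CPM, Cdk6 at 199 against 204 CPM and Cdk4 at 193 against 137 CPM.

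The same lists had fewer genes with 50 counts in the host lineages. In T cells 11 of 11 other G2/M genes that had them were higher, where 4.41% of all genes were higher and 3.62% lower, and 9 of 19 S-phase genes were. T cells called 1 G1 gene lower, Ccnd2, a D cyclin of lymphocytes, at 225 against 456 CPM. In macrophages 15 of 16 other G2/M genes and 21 of 24 S-phase genes were higher (9.44% of all genes higher, 6.65% lower), and of 15 arrest genes 2 were higher and 3 lower. In NK cells 8 of 8 and 11 of 16 were higher (4.7% of all genes higher, 2.7% lower).

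Summed over all cells of a lineage, with no thinning, the 34 genes took 1888 CPM in carcinoma cells (exact 95% Poisson interval 1880 to 1896). They took 2167 CPM in T cells (2086 to 2252), 1891 in pericytes or smooth muscle cells (1749 to 2042) and 2654 in the 13 B or plasma cells (2269 to 3086), where barcode set 6 decided the value, since without it the sum was 231 CPM. NK cells stood at 1385 CPM (1320 to 1452), endothelial cells at 1377, mast cells or basophils at 979, macrophages or monocytes at 801 (777 to 825), fibroblasts at 556 (526 to 588), dendritic cells at 533, osteoclast-like cells at 433 and neutrophils at 256. In the order, pericytes and carcinoma cells, NK and endothelial cells, fibroblasts and dendritic cells, and dendritic and osteoclast-like cells had overlapping intervals. Over the barcode sets the carcinoma sum ran from 1398 CPM in set 6 to 2126 in set 2, with a median of 1862. Set 6 was the lowest of the 6 for 30 of the 34 genes in carcinoma cells. The NK sum ran from 820 CPM in set 6 to 1677 in set 4, and the macrophage sum from 474 in set 6 to 935 in set 1, while the fibroblast sum was highest in set 6, at 985 CPM.

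Each lineage was also set against all other analysed cells, again at 2-fold with at least 50 counts, which all 34 genes reached. Carcinoma cells held 113597782 gene UMIs, and macrophages or monocytes, the next lineage, 5435111. For a host lineage the other cells are thus mostly carcinoma RNA. In carcinoma cells 10 of 34 were higher and none lower, with a median of 1.87-fold, where 5.2% of all genes were higher and 14.7% lower. T cells had 4 higher and 1 lower (13.8% of all genes higher, 19.9% lower). NK cells had 1 higher, Cenpa at 2.64-fold, and 7 lower (11.9% higher, 22.2% lower). Macrophages or monocytes had none higher and 24 lower, with a median of 0.405-fold (12.9% higher, 27.6% lower), and fibroblasts none higher and 33 lower, with a median of 0.320-fold (10.6% higher, 15.5% lower). The median over all genes of at least 20 CPM lay between 0.843 and 1.06-fold in these 5 comparisons.

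**Figure D2:**
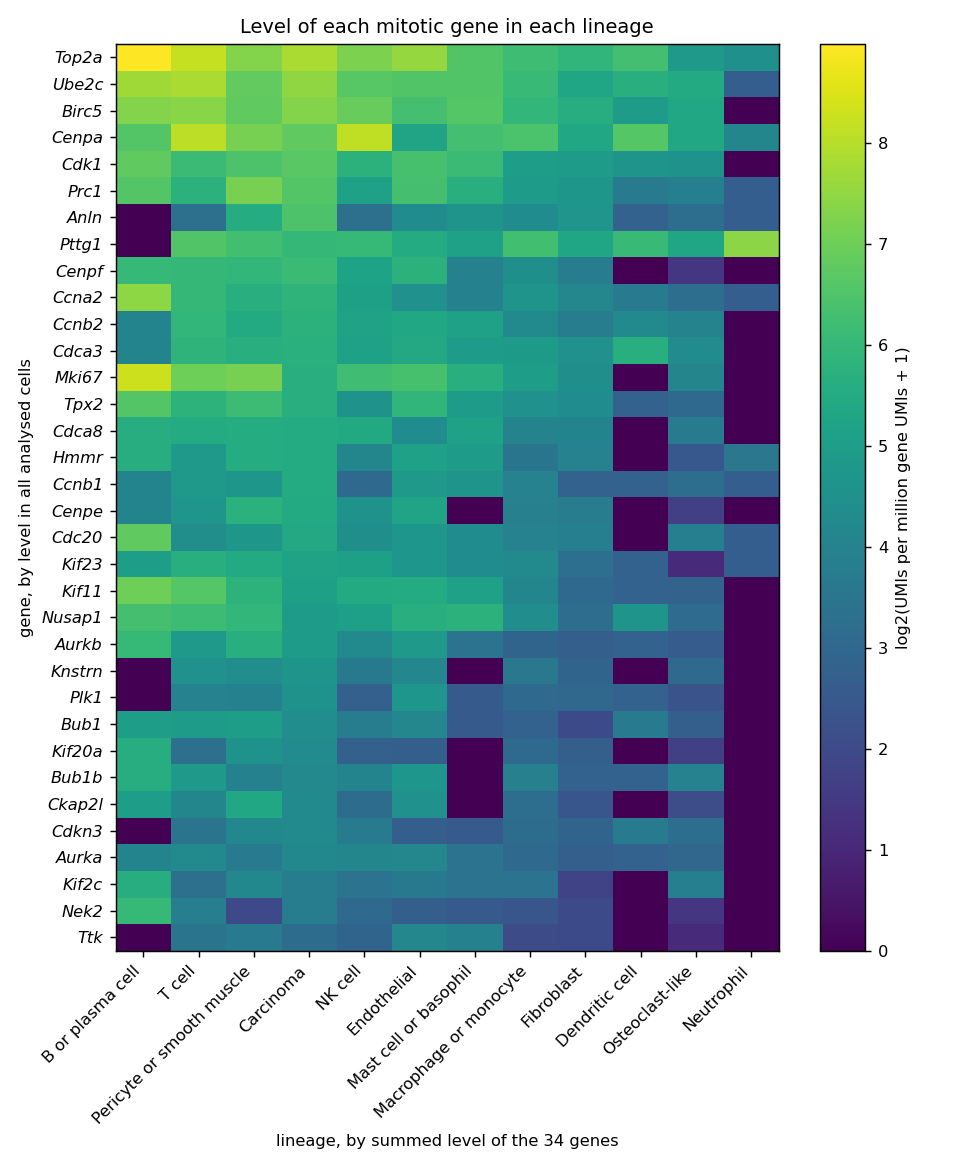
Level of each of the 34 genes (rows, by level in all analysed cells) in each of the 12 lineages (columns, by summed level), as log2 of CPM plus 1. Top2a has the highest level in T cells, carcinoma cells, fibroblasts, endothelial cells, pericytes and B or plasma cells and Cenpa in NK cells, macrophages and dendritic cells, Anln is dark in T cells, NK cells and B or plasma cells, Cenpa is bright in T and NK cells, and Pttg1 is the brightest gene of neutrophils.

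Levels of single genes are given as CPM of 3′ counts without scaling to length. Among the cyclins and CDK1, Cdk1 was the most abundant, at 102 CPM in carcinoma cells, 68.2 in T cells, 52.8 in NK cells and 31.3 in macrophages. Over the sets its carcinoma level ran from 63.4 to 112 CPM with a median of 104, set 6 the lowest. Ccna2, cyclin A2, stood at 56.1 CPM in carcinoma cells, 62.5 in T cells and 33.3 in NK cells. Ccnb1, cyclin B1, stood at 44.5 CPM in carcinoma cells, 27.9 in T cells (34 counts) and 7.32 in NK cells (9 counts). Ccnb2, the other B cyclin, was at 54.0, 60.8 and 35 CPM in these lineages, so that the low NK value belongs to Ccnb1. Both B cyclins have annotated pseudogenes that can share reads. Cdca3, a regulator of mitotic entry, and Cdkn3, a CDK phosphatase, stood at 51.3 and 18.0 CPM in carcinoma cells.

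The 4 kinases were the least abundant group, with 60.9 CPM in sum in carcinoma cells and 55.9 in T cells. Plk1, the polo kinase, stood at 22.8 CPM in carcinoma cells and 5.69 in NK cells, and Aurka, of the spindle poles, at 17.4 and 16.3 CPM. Nek2, which parts the centrosomes, and Ttk, a checkpoint kinase, stood at 12.6 and 8.08 CPM in carcinoma cells.

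In the passenger complex, Birc5 (survivin) stood at 159.5 CPM in carcinoma cells, 168 in T cells, 119 in NK cells and 59.8 in macrophages, and no count of it was seen in neutrophils, for which the floor of 3 counts allows up to 16.3 CPM. Its carcinoma level ran over the sets from 126 to 182 CPM. Cdca8 (borealin) stood at 44.7 CPM in carcinoma cells, 45.2 in T cells and 42.3 in NK cells. The kinase Aurkb stood at 29.9, 27.9 and 18.7 CPM.

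Among checkpoint and kinetochore genes Cenpa, the histone H3 variant of centromeres, stood apart. It was at 276 CPM (248 to 307) in NK cells and 269 CPM (240.4 to 299.5) in T cells against 109 CPM in carcinoma cells and 84.5 in macrophages. In NK cells it ran over the sets from 211 CPM in set 6 to 312 in set 2, in T cells from 87.0 in set 1, where T cells were few, to 428 in set 5, and in carcinoma cells from 75.2 to 123. All 6 NK values lay above all 6 carcinoma values. Cenpf, a large kinetochore protein, stood at 69.3 CPM in carcinoma cells, 61.6 in T cells and 35.8 in NK cells. Cenpe, a kinetochore motor, was at 43.3 CPM in carcinoma cells and 24.7 in T cells, and Bub1, Bub1b and Knstrn, which guard or build attachments, were between 17.7 and 24.2 CPM in carcinoma cells.

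Among the kinesins, Kif11, which pushes the spindle poles apart, stood at 97.0 CPM (80.3 to 116) in T cells against 33.3 in carcinoma cells, 43.9 in NK cells and 16.4 in macrophages. T cells had 3.13 times the level of all other analysed cells, whose RNA is mostly that of carcinoma cells. Over the sets T cells ran from 75.6 CPM in set 3 to 127 in set 5, and carcinoma cells from 23.3 to 42.6, so that the ranges do not overlap. Kif23, of the central spindle, stood at 48.5 CPM in T cells and 34.9 in carcinoma cells. Kif20a, needed for cytokinesis, and Kif2c, which takes microtubules apart, were at 19.2 and 12.9 CPM in carcinoma cells.

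Among spindle and cytokinesis genes Anln, the anillin that organises the contractile ring, stood at 87.4 CPM in carcinoma cells, 9.04 in T cells (11 counts; 4.51 to 16.2) and 8.94 in NK cells (11 counts; 4.46 to 16). Pericytes had 46.4 CPM, fibroblasts 24.6, endothelial cells 19.7 (7 counts) and macrophages 19.5. The carcinoma level ran over the sets from 70.5 to 99.1 CPM and the T cell level from 0 to 14.8, with no overlap. Prc1, which bundles antiparallel microtubules, stood at 94.7 CPM in carcinoma cells, 53.4 in T cells and 34.1 in NK cells. Tpx2, which activates Aurora A, Hmmr, Nusap1 and Ckap2l, all spindle proteins, stood at 48.7, 45.2, 29.3 and 18.2 CPM in carcinoma cells, and Nusap1 was at 70.7 CPM in T cells.

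In the anaphase-promoting complex pathway Ube2c, its ubiquitin-conjugating enzyme, stood at 178 CPM in carcinoma cells, 228 in T cells and 99.2 in NK cells. Cdc20, its activator, was at 41.9, 20.5 and 21.1 CPM. Pttg1, securin, stood at 62.7 CPM in carcinoma cells, 91.2 in T cells and 75.1 in macrophages, and at 169 CPM (114 to 239) in neutrophils, where it made 31 of 47 member counts while 23 members had none. For chromatin, Top2a, the topoisomerase that untangles chromosomes, was at 228 CPM in carcinoma cells, 291 in T cells, 146 in NK cells and 72.7 in macrophages. Mki67, which coats mitotic chromosomes, stood at 48.1, 126, 74.0 and 31.3 CPM.

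Levels over a lineage mix the number of dividing cells with the level in each. To compare dividing cells with dividing cells, G2/M-program cells were called from the 65 other genes, so that no member's own value was used. This gave 2244 carcinoma cells, 101 macrophages or monocytes, 83 T cells, 52 NK cells and 21 fibroblasts. In them the summed members took 4541 CPM in carcinoma cells, 4186 in T cells, 3969 in NK cells, 4123 in macrophages and 2846 in fibroblasts. The median member was at 0.845-fold in T cells, 0.834-fold in NK cells, 0.883-fold in macrophages and 0.637-fold in fibroblasts, where the median over all genes of at least 20 CPM lay between 0.920 and 0.957-fold. Scaled to the summed member UMIs in place of all UMIs, these medians were 0.917, 0.954, 0.972 and 1.02-fold, so that the fibroblast median turned from below 1 to above it. All 34 members had at least 50 counts in each comparison.

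Among T cells 2 members were called higher than in carcinoma cells, where 13.2% of all genes were, and 6 lower, where 17.5% were. Kif11 was at 197 CPM against 89.1, a ratio of 2.21 (1.80 to 2.69). It was higher in T cells in each of the 5 sets that held T cells of the program, at 254 against 99.6 CPM in set 2, 119 against 67.6 in set 3, 155 against 88.9 in set 4, 257 against 78.9 in set 5 and 242 against 80.7 in set 6. Mki67 was at 245 CPM against 123, a ratio of 2.00 (1.66 to 2.39) that lies at the limit of the call. The lower members were Anln at 11.45-fold, Aurka at 2.51-fold, Cdc20 at 2.20-fold, Prc1 at 2.19-fold, Kif20a at 2.14-fold and Hmmr at 2.04-fold below carcinoma cells. Aurka rested on 9 T cell counts and Kif20a on 11. Cenpa stood at 396 CPM against 241, within 2-fold. Without barcode set 3 only 2 members were called lower, and without set 4 or set 5 only 1 higher. Shares of all genes were computed only with all sets, here and for the sets left out below.

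NK cells had no member called higher, where 12.9% of all genes were, and 7 lower, where 15.8% were. These were Anln at 12.6-fold, Ccnb1 at 5.25-fold (2.54 to 13.1), Plk1 at 3.04-fold, Kif20a at 2.89-fold, Hmmr at 2.13-fold, Prc1 at 2.03-fold and Tpx2 at 2.02-fold below carcinoma cells. Ccnb1 rested on 7 counts, Plk1 on 6 and Kif20a on 5. Cenpa at 476 CPM and Mki67 at 239 CPM came to 1.98 and 1.95 times the carcinoma level, just short of the limit. Without barcode set 6, 2 members were called higher and 4 lower.

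Anln differed most from carcinoma cells in both lymphocyte lineages. It stood at 199 CPM in carcinoma cells of the program, 17.4 CPM in T cells (9 counts; 7.95 to 33.0) and 15.8 CPM in NK cells (5 counts; 5.11 to 36.8), against 106 CPM in macrophages (67 counts) and 144 CPM in fibroblasts (40 counts). Over the sets the carcinoma value ran from 178 to 209 CPM, and the highest value of T cells was 34.5 CPM in set 6 and of NK cells 33.3 CPM in set 5. Of the other spindle and cytokinesis genes Prc1 and Hmmr were called lower in T cells, at ratios near the limit, and Tpx2, Nusap1 and Ckap2l were within 2-fold. Free RNA and doublets can add Anln counts to lymphocytes, and their part was not tested.

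Macrophages or monocytes of the program had no member called in either direction, where 12% of all genes were higher and 12% lower. Their widest ratios were 1.88 for Nusap1 and, downward, 0.526 for Aurkb. Between 1 and 3 members were called lower when set 1, 2, 4, 5 or 6 was left out, the 3 without set 1. In 21 fibroblasts none was higher, where 10.5% of all genes were, and 10 were lower, where 6.09% were: Ccnb1, Ccnb2, Cenpf, Ube2c, Aurkb, Bub1, Kif2c, Nusap1, Knstrn and Ckap2l, between 2.16 and 3.14-fold. Kif2c rested on 3 fibroblast counts, the floor, Bub1 on 5, and Knstrn and Ckap2l on 6 each. The interval of the fibroblast to carcinoma ratio of Ckap2l, 0.170 to 1.01, included 1. Scaled to the summed member UMIs in place of all UMIs none of the 10 remained past 2-fold, with values between 1.35 and 1.97-fold lower, and 16 of the 34 ratios turned from below 1 to above it, among them Top2a from 0.665 to 1.06. S-phase UMIs per 2000 in the cells compared were 8.88 in T cells, 7.81 in NK cells, 5.70 in macrophages, 5.43 in fibroblasts and 5.93 in carcinoma cells, and median depth was 5067, 5026.5, 4901, 11512 and 16604.5 UMIs. Their part in the ratios was not tested.

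**Figure D3:**
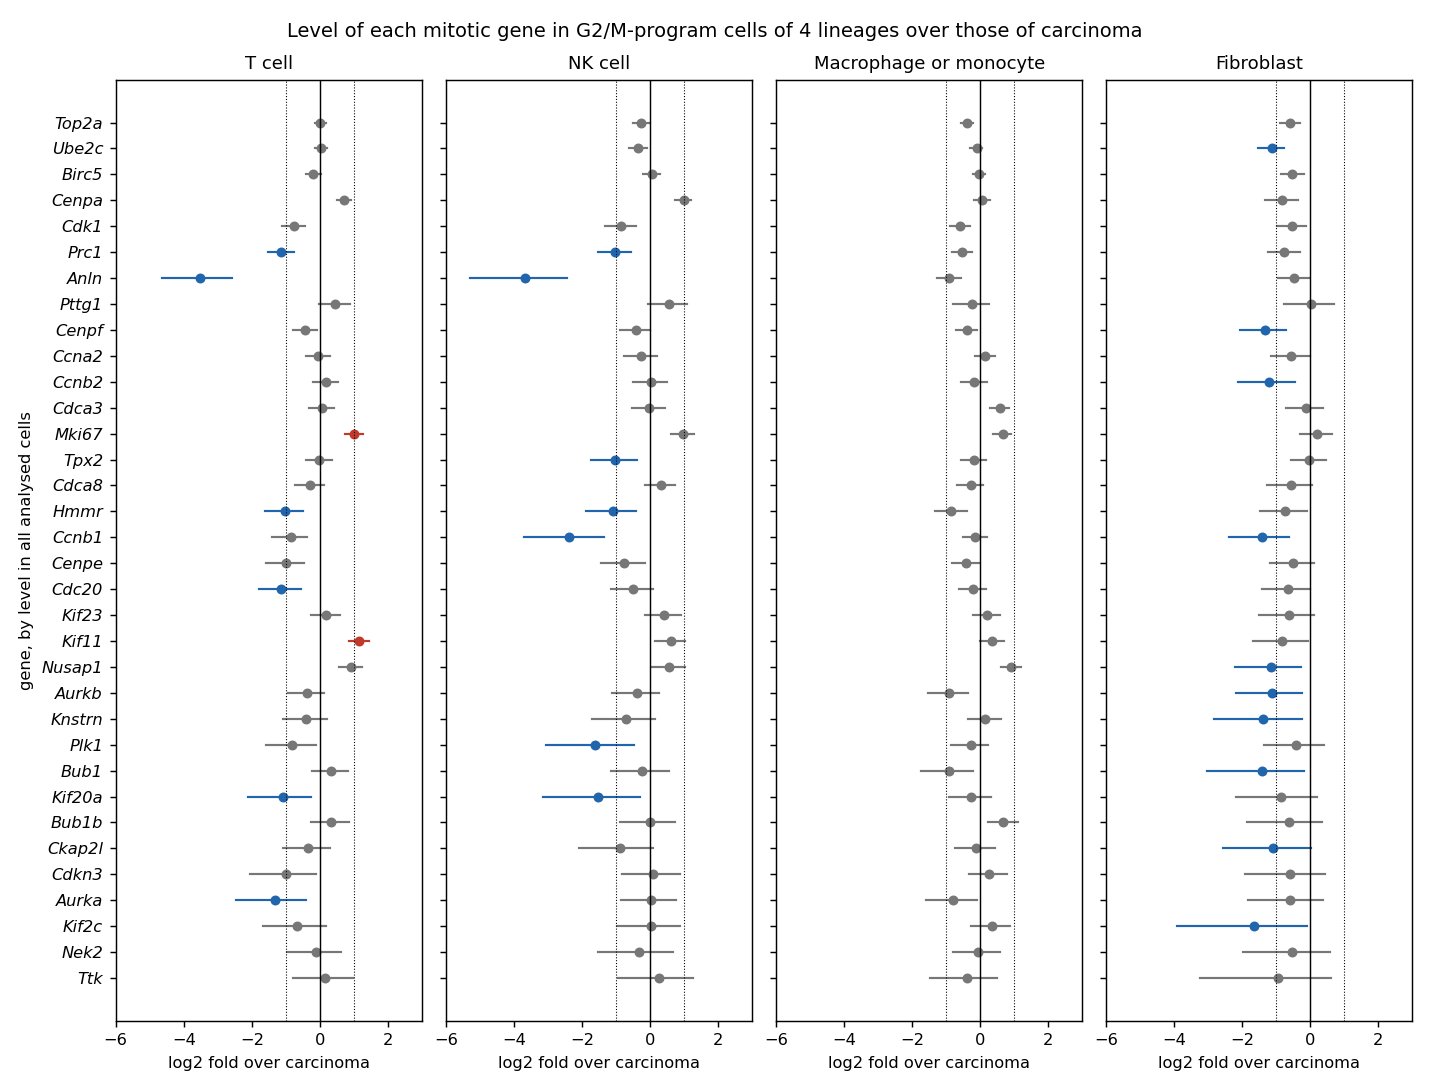
Ratio of each gene's CPM in G2/M-program cells of T cells, NK cells, macrophages or monocytes and fibroblasts to that in carcinoma cells, as log2 (x axis), with the 95% interval from counting error. Red and blue points are past 2-fold higher and lower, and dotted lines mark 2-fold. Anln lies far to the left in T and NK cells only among these 4 panels, Kif11 and Mki67 are red in T cells, and no macrophage point is coloured.

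The ratio plot sets 4 lineages beside the same carcinoma cells, so its panels share their reference and their similarity was not measured. The calls that stood in all 14 alternative settings were Anln and Kif11 in T cells and Anln, Ccnb1, Kif20a and Plk1 in NK cells. A lower minimum of counts was among these settings and could not change any of these calls. Over these settings Anln was 7.96 to 14.3-fold lower in T cells and 10.9 to 17.2-fold lower in NK cells, and Kif11 2.01 to 2.57-fold higher in T cells. Mki67 in T cells ran from 1.67 to 2.30-fold. It was past 2-fold in 10 of the 14 settings. It missed 2-fold without barcode set 4, without set 5, with marked doublets kept and with 1 more marker gene in the gate. Cdc20, Kif20a and Prc1 in T cells missed 2-fold without set 3, and Hmmr without set 1, 2, 3 or 4. Over the 14 settings these 4 genes were past 2-fold in 13, 12, 12 and 8.

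Members were then read in cells that held no UMI of the other 65 genes after thinning. This split rests on genes of the same programme, so lower levels outside it are not read as a result about the members. In 3106 carcinoma cells without such a UMI all members but Pttg1 were lower than in the program cells. Their ratios ran from 8.51 (Ccnb2) to 93.0 (Kif2c), with a median of 31.7. Pttg1 was the exception, at 60.6 CPM (58.2 to 63.0) in the program and 64.5 CPM (61.9 to 67.2) outside it. In 504 macrophages outside the program it stood at 81.3 CPM (68.7 to 95.5) and in 101 within it at 50.7 CPM (34.7 to 71.6). In T cells the values were 83.1 CPM inside and 96.2 outside, and in NK cells 88.2 and 49.6. Over the carcinoma sets Pttg1 ran from 42.4 CPM in set 3 to 80.8 in set 5, and set 6, the lowest for 30 members, was at 70.7 CPM.

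Cenpa was the second gene with a level outside the program, in leukocytes. It stood at 172 CPM (131 to 222) in 79 NK cells, 154 CPM (98.6 to 229) in 45 T cells and 59.3 CPM (48.7 to 71.6) in 504 macrophages, against 20.6 CPM (19.1 to 22.1) in 3106 carcinoma cells, all without another G2/M gene. Inside the program it was 2.76 times that level in NK cells, 2.57 times in T cells, 4.25 times in macrophages and 11.7 times in carcinoma cells. After thinning 29.1% of these NK cells and 31.1% of these T cells held a Cenpa UMI, against 3.41% of the carcinoma cells and 4.00% of all 25 thinned neutrophils.

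**Figure D4:**
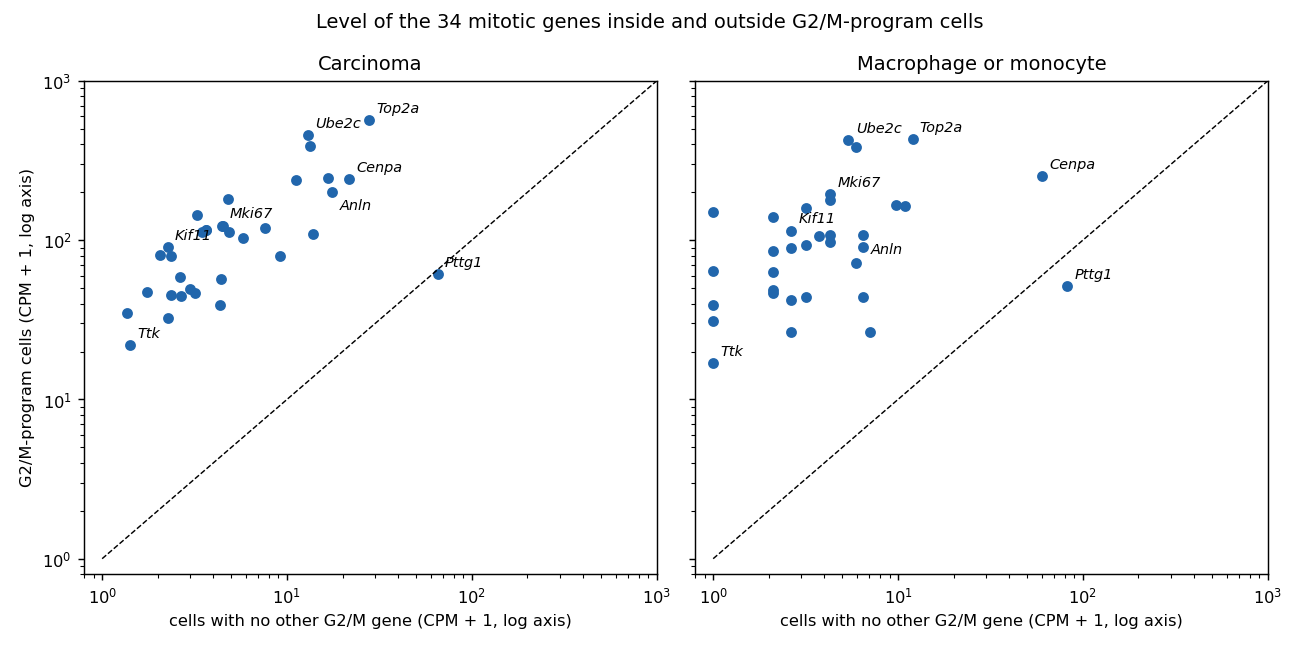
Level of the 34 genes in G2/M-program cells (y axis) against cells with no other G2/M gene (x axis), both as CPM plus 1 on log axes, in carcinoma cells and in macrophages or monocytes; the dashed line marks equal levels. Pttg1 lies at the line in carcinoma cells and below it in macrophages, and Cenpa lies nearer to the line in macrophages, at 252 against 59.3 CPM.

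The members differed in how much S-phase RNA accompanied them. In thinned carcinoma cells with a UMI of a member, the UMIs of 40 S-phase genes were averaged, and all carcinoma cells held 2.94. The lowest were Pttg1 at 2.56, Cdkn3 at 3.98 and Ccnb2 at 4.01. The highest were Ckap2l at 5.92, Ttk at 5.99 and Aurkb at 6.23. Cells with Pttg1 held fewer than the average carcinoma cell, and cells with each of the other members held more. G2/M-program carcinoma cells held 5.65 and the others 1.97, so this is not read as a trait of single members. Cenpa at 4.09, Hmmr at 4.32 and Cdc20 at 4.41 followed the low end, and Mki67 at 5.84, Top2a at 5.78 and Ccna2 at 5.74 preceded the high end.

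**Figure D5:**
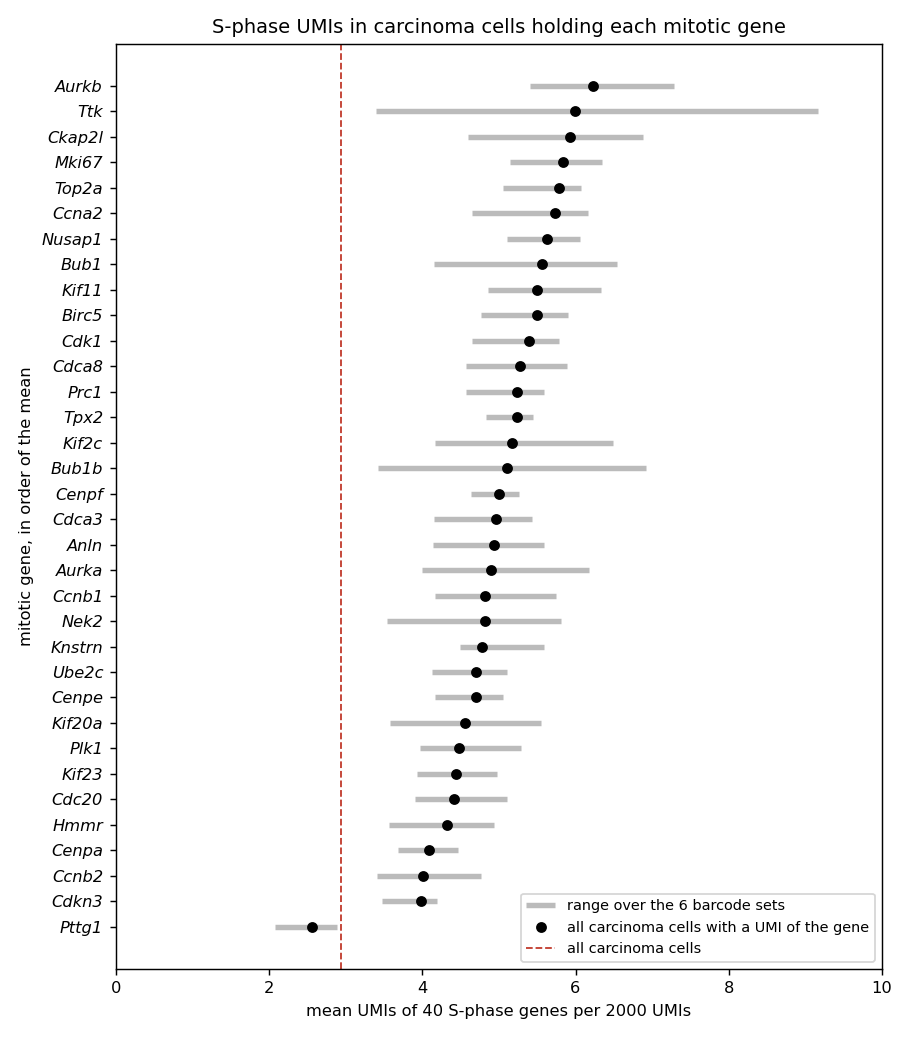
Mean UMIs of 40 S-phase genes per 2000 UMIs (x axis) in carcinoma cells that hold a UMI of each mitotic gene (rows). Black points are all such cells, grey bars the range over the 6 barcode sets, and the dashed line all carcinoma cells at 2.94. The order runs from Pttg1 at 2.56 to Aurkb at 6.23.

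The plot of S-phase UMIs shows wide set ranges for rare genes. Aurkb ran from 5.4 to 7.29 over the sets and Ccnb2 from 3.41 to 4.77, so that these ranges do not overlap. Ttk, found in 101 cells, ran from 3.40 to 9.17 and its place is uncertain. Depth differed along the order, with a median of 11301.5 UMIs in cells with Pttg1, 15298.5 with Ccnb2 and 18944 with Aurkb. The share of cells called as G2/M-program cells from the other G2/M genes differed too. It was 24.3% of cells with Pttg1, 69.5% with Cdkn3 and 67.0% with Ccnb2. It was 88.9% with Ckap2l, 88.1% with Ttk and 91.2% with Aurkb. The order did not follow this share throughout, since Hmmr, near the low end, had 84.0% and Top2a, near the high end, 73.8%. The parts of depth and of this share in the order were not tested.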

How the data were processed

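The 6 tumors share 1 matrix that the authors deposited, whose values are whole counts of UMIs for 32285 genes and 12 multiplexing tags in 14818 cells. Per the file headers its writer was Cell Ranger 7.0.0. The submitters' processing notes list Cell Ranger 7.1 and mouse build mm10, and the series' design text lists Seurat 4.1.0. Filters before deposit are not given in the sources used here. The 6 barcode sets held 901 to 4077 of the deposited cells, before filtering, and no barcode sequence occurred in more than 1 set.

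The 34 members and all lists were chosen with earlier results of these data known, and carcinoma markers too. The filter on cells asked for 500 or more genes and less than 15% mitochondrial counts, which 13768 cells passed. With its expected doublet rate set to 6%, Scrublet (scanpy 1.11.5) marked 21 of them, 0.153%, too few to have worked, so doublets may remain. The 21 were left out. A cell entered a lineage with 3 different T cell markers, 4 macrophage, neutrophil, dendritic, NK, B, mast, endothelial or pericyte markers, 5 osteoclast markers or 8 fibroblast markers. Carcinoma cells needed 3 carcinoma markers and no host sign.

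Shares were taken after thinning each cell to 2000 gene UMIs, which left out 1745 cells. Intervals are exact at 95% (scipy 1.17.1) and floors are 3 counts. Ratios use summed counts scaled to CPM with that floor, and a gene was called past 2-fold with at least 50 counts in both arms together. Scripts were tested on simulated data. Values are named in full for the 2 members of highest level in each role, each member past 2-fold among program cells, both ends of the S-phase order, and the 3 genes of highest level of each other list. Promoter windows came from RefSeq on GRCm38.p6. With 1 pooled sample and no map from cells to tumors, no test between treatments was run.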

Additional observations from a re-analysis of the deposited data

How the results depend on the processing

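The choices below were tried one at a time. No ratio called past 2-fold turned its direction in any alternative tried, but the order of T cells and carcinoma cells by share did. T cells were above at 2000 and 4000 UMIs and below at 1000 UMIs and without thinning. Shallower cells were left out at each number of UMIs, most T cells among them at 4000, so the cells compared changed too. For single genes and the smaller lineages 570 values stayed within their spread or interval and 32 moved, and for the main shares, sums and counts 198 stayed and 71 moved. The values that stayed include those under a lower minimum of counts, which could not change a ratio or a count of members. Of the ratios called past 2-fold, Cenpf at 0.63-fold and Ube2c at 0.73-fold in fibroblasts moved beyond their counting interval, both when scaled to the summed member UMIs. Over all 34 members that scaling took 16 fibroblast ratios out of their interval and none in T cells, NK cells or macrophages, and it turned 25 of all 136 ratios from below 1 to above it, 16 of them in fibroblasts. That scaling, and another random draw of 2000 UMIs, were added after seeing the data.

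Without set 6 the B or plasma share fell to 0 of 2 cells and the sum to 231 CPM. The share of G2/M-program cells moved most with the number of UMIs kept per cell, which also changed the cells compared. Thinned to 1000 UMIs it was 17.7% in carcinoma cells, 3.34% in fibroblasts, 4.12% in macrophages or monocytes, 13.6% in T cells and 9.60% in NK cells. Thinned to 4000 UMIs it was 34.8% in carcinoma cells, 28.6% in macrophages, 75% in T cells and 40.6% in NK cells. Median depth was 2203 UMIs in macrophages, 2063.5 in T cells and 3138 in NK cells, so most of these cells were left out at 4000. With no thinning it was 51.3% in carcinoma cells, 13.7% in fibroblasts and 22% in T cells. With at least 2 members it was 33.5% in carcinoma cells, 14.2% in macrophages, 44.7% in T cells and 30% in NK cells. With at least 5 it was 18.9% in carcinoma cells, 4.55% in fibroblasts, 5.55% in macrophages, 25% in T cells and 13.5% in NK cells. Carcinoma cells stood at 28.4% with 1 more marker gene in the gate and at 24.8% without Mki67 and Top2a.

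The summed member level, with 1 more marker gene, was 1962 CPM in carcinoma cells, 2296 in T cells and 1464 in NK cells. When cells needed 1000 genes and less than 10% mitochondrial counts, it was 907 CPM in macrophages, 2599 in T cells and 1491 in NK cells. It was 757 CPM in macrophages when cells with a Scrublet score of at least 0.25 were left out. Leaving out each barcode set gave 1840.4 to 1934 CPM in carcinoma cells, 508 to 615 in fibroblasts, 763 to 845 in macrophages, 2029.6 to 2318 in T cells and 1311 to 1529 in NK cells.

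Counts of members past 2-fold were small and moved. The share of all genes past 2-fold was not computed in the alternative settings, so these counts have no background beside them. In T cells 1 member was higher when marked doublets were kept or 1 more marker was asked, and 3 were lower when cells were called by 3 members other than the gene. In NK cells 1 was higher with the Scrublet score limit or 1 more marker, 2 were higher and 4 lower when called by members, and again 2 and 4 when scaled to member UMIs. In macrophages 1 was higher with the score limit or the member scaling, and 1 lower with the score limit or 1 more marker. In fibroblasts the member scaling left 0 lower. Without each barcode set in turn, T cells had 1 to 3 members higher and 2 to 8 lower, NK cells 0 to 2 higher and 4 to 8 lower, macrophages 0 to 3 lower and fibroblasts 8 to 15 lower. The lowest T cell counts came without set 4 or 5 (1 higher) and without set 3 (2 lower), and 2 higher and 4 lower in NK cells without set 6. Macrophages had at least 1 lower without any set but set 3. The cause of these changes was not tested.

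No paired analysis was possible because no label or file ties a cell to a tumor or its replicate number. Few T, NK and fibroblast program cells, shallow T cells, unremoved doublets and 1 pooled sample limit these values, and intervals cover counting error only.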
